A study of Mus musculus with 1646 samples.

Results

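Laminin chains were described in single cells of the mouse colon. The 9 genes *Lama2*, *Lama3*, *Lama4*, *Lama5*, *Lamb1*, *Lamb2*, *Lamb3*, *Lamc1* and *Lamc3* were found by symbol in GENCODE vM21 among the 46517 genes of the deposited count table. *Lama1* was used by level only. Counts came from 1646 cells of male mice aged 10 to 20 weeks, sequenced one cell per well after sorting against the endothelial surface protein CD31. The cells came from 4 reporter lines. They were PdgfrbGFP (761 cells, 4 plates), Cspg4dsRED (91 cells, 1 plate) and Acta2GFP (567 cells, 2 plates), which carry transgenes. The remaining cells (2 plates) came from PdgfraGFP, a nuclear GFP knock-in. Fluorescence in each line follows the activity of the gene it is named after. Each cell carries 1 of 8 cluster numbers in its label, drawn by the study from the same counts. No label names a mouse, so a line was treated as 1 sample, and its spread also holds differences of reporter gate and dissociation (elastase was added for Acta2GFP cells).

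A laminin is a cross-shaped trimer of 1 α, 1 β and 1 γ chain, which is assembled before secretion. It is the part of the basement membrane sheet that cells bind. The α chain carries the globular end that binds integrins and dystroglycan, the β and γ chains complete the coiled rod, and γ1 holds nidogen. Trimers are named here by their chains, so that α2β1γ1 is the main muscle laminin and α5β1γ1 a common epithelial one. In the gut, basement membranes lie under the epithelium and around vessels, nerves and muscle cells, and mesenchymal cells make a share of their laminin.

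Clusters 1, 2, 5, 6 and 7 (1307 cells) carried fibroblast genes and clusters 3, 4 and 8 (all other cells) carried mural cell genes. Depth was 47598 to 1494292 counts per cell, with a median of 248628. Levels are counts of a gene per 500000 counts of a cell, averaged over the cells of 1 line within 1 cluster, and a line entered where it had at least 10 such cells, which gave 21 cluster-by-line groups. Cluster 2 was apex-like: *Tnc* (1972 ± 120.8, SD, n = 3 lines), *Il1rl1* (269.7 ± 140.4) and *Ptgs2* (1093 ± 261.5) were at their highest there, and *Cd34* was low (41.3 ± 37.4). The study places such *Tnc*+ *Cd34*- fibroblasts next to the surface epithelium. Clusters 1, 5 and 7 were the *Cd34*-high fibroblasts, with means of 595.1, 1026 and 1293, and cluster 6 had low *Cd34* (30.2 ± 25.6, n = 2) with *Pdgfra* at 606.8 ± 218.03. Mean *Tnc* was 542.4 in cluster 1 and 421.4 in cluster 6, against 54.5 and 16.9 in clusters 5 and 7. Cluster 6 thus also held *Tnc* with low *Cd34*, but with *Il1rl1* at 1.79 and *Ptgs2* at 46.1. Cluster 4 was pericyte-like (*Rgs5* 3262 ± 193.2, *Kcnj8* 489.3 ± 7.32, *Abcc9* 463.7 ± 114.3, n = 2). Clusters 3 and 8 were smooth muscle-like, with *Myh11* at 1856 ± 290.8 (n = 3) and 1891 (1 line) and *Cnn1* at 309.8 ± 108.1 and 984.8. Before deposit the authors removed cells that expressed neither *Pdgfra* nor *Pdgfrb* and cells with endothelial or immune signatures. Low levels of markers of other cells were thus in part fixed beforehand. Mean *Cdh5* (endothelium) was at most 0.687 and *Ptprc* (immune cells) at most 0.251 counts per 500000 in any cluster. *Sox10* (glia) was at most 0.649 and *Epcam* (epithelium) at most 1.30. The whole lists summed to at most 31.7 (5 immune genes), 5.05 (5 glial genes) and 55.9 (8 epithelial genes) in any line of a cluster, and the 3 mesothelial genes to 7.87. The 8 endothelial genes summed to 13.4 to 567.4, mainly through *Esam* in clusters 3, 4 and 8 and *Tek* in clusters 5 and 7 (means 109.8 and 179.5). Of the pair marking interstitial cells of Cajal, *Kit* was at most 8.85 in the mean of any cluster, and *Ano1* was 170.8, 283.6 and 294.96 in clusters 2, 3 and 4.

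The chain genes lie apart in the genome (GRCm38, whole gene spans of GENCODE vM21). *Lama2* (ENSMUSG00000019899, chr10:26980036-27619758) and *Lama4* (ENSMUSG00000019846, chr10:38965515-39110188) share chromosome 10, and *Lama5* (ENSMUSG00000015647, chr2:180176373-180225859) and *Lamc3* (ENSMUSG00000026840, chr2:31887291-31946539) share chromosome 2. *Lamb1* is ENSMUSG00000002900 at chr12:31265234-31329644, *Lamb2* ENSMUSG00000052911 at chr9:108479736-108490530 and *Lamc1* ENSMUSG00000026478 at chr1:153218922-153332786.

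Promoters are shown for the 4 chains whose levels separated the apex-like cluster from the *Cd34*-high clusters and that have an entry. RefSeq promoter sequences (GRCm38.p6, 250 bases before to 50 after the start) matched 5 of the 9 chains. Each is written 5′ to 3′ on the strand of the gene, with GC boxes (GGGCGG on either strand) in capitals. *Lama5* lies at chr2:180225810-180226109 (minus strand), *Lamb1* at chr12:31265043-31265342 (plus), *Lama2* at chr10:27616893-27617192 (minus) and *Lamb2* at chr9:108479612-108479911 (plus). The RefSeq start of *Lama2* lies 2816 bases inside the outer end of the gene in GENCODE.
Lama5: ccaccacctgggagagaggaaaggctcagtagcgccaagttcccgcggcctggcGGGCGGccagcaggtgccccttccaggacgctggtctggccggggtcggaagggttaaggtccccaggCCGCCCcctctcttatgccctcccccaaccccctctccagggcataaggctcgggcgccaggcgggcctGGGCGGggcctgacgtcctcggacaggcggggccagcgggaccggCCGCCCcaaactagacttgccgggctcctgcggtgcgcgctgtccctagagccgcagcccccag
Lamb1: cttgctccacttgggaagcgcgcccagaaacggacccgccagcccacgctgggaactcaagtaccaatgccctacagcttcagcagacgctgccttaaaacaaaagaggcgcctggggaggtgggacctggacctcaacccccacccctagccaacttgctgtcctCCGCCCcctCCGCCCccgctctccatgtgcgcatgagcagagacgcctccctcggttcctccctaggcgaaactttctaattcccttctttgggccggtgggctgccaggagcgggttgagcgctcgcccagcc
Lama2: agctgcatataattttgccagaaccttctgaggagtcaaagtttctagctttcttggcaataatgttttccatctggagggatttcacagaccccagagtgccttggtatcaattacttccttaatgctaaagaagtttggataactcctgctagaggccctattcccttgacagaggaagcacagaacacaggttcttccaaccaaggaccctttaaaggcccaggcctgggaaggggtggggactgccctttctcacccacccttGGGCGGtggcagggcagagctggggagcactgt
Lamb2: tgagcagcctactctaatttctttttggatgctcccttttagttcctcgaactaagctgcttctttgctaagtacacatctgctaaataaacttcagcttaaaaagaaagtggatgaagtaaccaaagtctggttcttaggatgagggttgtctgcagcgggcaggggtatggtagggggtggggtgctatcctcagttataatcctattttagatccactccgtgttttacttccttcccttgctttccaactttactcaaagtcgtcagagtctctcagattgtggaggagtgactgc
The *Lama5* window held 4 GC boxes and 24 CpG dinucleotides, and the *Lamb1* window held 2 and 18. The *Lama2* window held 1 GC box and 1 CpG, and the *Lamb2* window held 0 and 4. A GC box was present in 35.7% of all 32851 promoters of the table, whose median CpG number was 7. None of the 4 windows held a TATA box (TATAAA), which 13.6% of all promoters did. The *Lama2* window alone of the 4 held a CArG box (1.63% of all). These are descriptions of the letters in the window, and nothing about binding was measured.

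The chains differed in level between the clusters, while γ1 was present throughout and clusters 1, 5, 6 and 7 held the same 5 chains. *Lama2* and *Lama4* were high in fibroblasts other than the apex-like cluster, *Lama5* was high in the apex-like cluster, *Lamb2* was highest and *Lamb1* lowest in the smooth muscle-like cluster 3, and *Lamc3* was high in the pericyte-like cluster. *Lama3* and *Lamb3*, the α3 and β3 chains known from epithelial basement membranes, were at most 0.3503 and 0.261 counts per 500000 in the mean of any cluster, and 7.53% and 6.08% of all cells held a count.

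**Figure D1:**
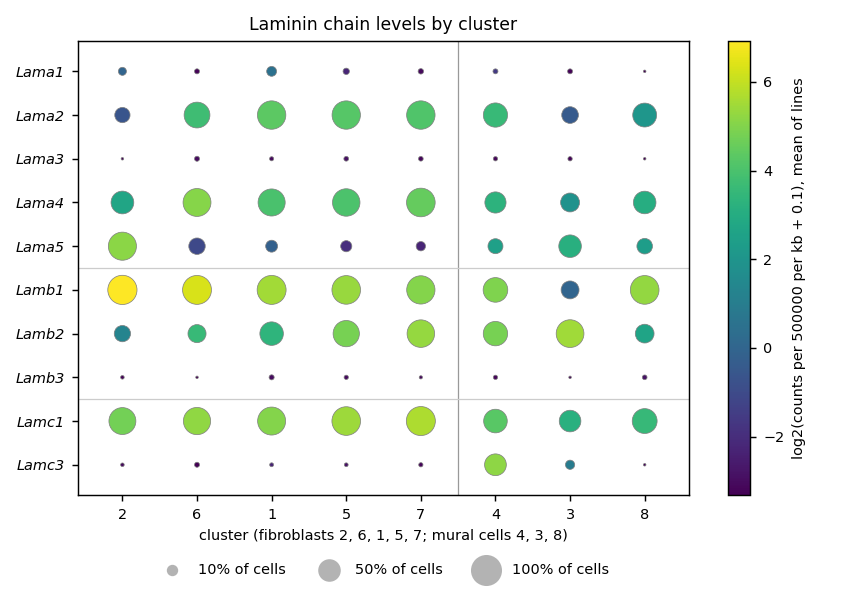
Length-scaled level (colour, log2 of counts per 500000 per kb of exon plus 0.1, mean of lines) of 10 laminin chain genes in 8 clusters, with dot area rising with the share of cells holding at least 1 count after thinning to 50000 counts. *Lamc1* is seen in every cluster, *Lamc3* mainly in cluster 4, and *Lamb1* is weakest in cluster 3.

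Among the α chains, *Lama2* (the α2 chain of muscle and nerve laminin) was high in 4 of the 5 fibroblast clusters and in the pericyte-like cluster. Its level was 318.8, 395.5 and 269.3 in cluster 1 (Acta2GFP, PdgfraGFP, PdgfrbGFP), 257.8, 330.2, 412.6 and 209.8 in cluster 5 (Acta2GFP, Cspg4dsRED, PdgfraGFP, PdgfrbGFP) and 192.3, 380.3 and 259.4 in cluster 7. In cluster 6 it was 182.7 (Acta2GFP) and 246.5 (PdgfraGFP), in cluster 4 it was 230.9 (Cspg4dsRED) and 160.4 (PdgfrbGFP), and in cluster 8 it was 66.7. In the order of means, clusters 1, 5, 7, 6 and 4 each overlapped the next, and cluster 8 lay under all of them. In the apex-like cluster the level was 1.29 (Acta2GFP), 1.42 (PdgfraGFP) and 24.7 (PdgfrbGFP), and in cluster 3 it was 16.2, 4.95 and 10.3 (Acta2GFP, Cspg4dsRED, PdgfrbGFP). The PdgfrbGFP apex-like cells thus stood above the other lines. There, 29 of 30 cells held a *Lama2* count, against 12 of 44 and 34 of 55 in the Acta2GFP and PdgfraGFP cells. *Dcn*, a fibroblast matrix gene high in clusters 1, 5 and 7, moved with it (141.3, 111.4 and 567.3 in the Acta2GFP, PdgfraGFP and PdgfrbGFP cells of cluster 2), as did *Lum* (68.97, 5.99 and 173.7). *Col1a1* (1238, 3040 and 2596), *Col1a2* (1439, 2729 and 2248) and *Pdgfra* (1284, 765.7 and 1076) were not highest in the PdgfrbGFP cells, and the part of these 5 fibroblast markers in the result was not tested.

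*Lama4*, the short-armed α4 chain of vessel and muscle basement membranes, was the most even α chain. It was highest in cluster 6 (400.7 in Acta2GFP, 396.4 in PdgfraGFP), followed by cluster 7 (256.7, 300.6 and 262.9 in Acta2GFP, PdgfraGFP and PdgfrbGFP), and these ranges did not overlap. Clusters 5 (133.9 to 261.2 over 4 lines) and 1 (166.4 to 227.8 over 3 lines) followed and overlapped, with cluster 5 also reaching into cluster 7. Cluster 4 (162.3 in Cspg4dsRED, 69.3 in PdgfrbGFP) lay just under cluster 1, and clusters 8 (98.4), 2 (108.8, 80.7 and 44.9) and 3 (71.9, 20.3 and 40.2) each overlapped the one before.

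*Lama5*, whose product is the α5 chain of epithelial and vessel basement membranes, had the opposite pattern. In the apex-like cluster its level was 183.4 (Acta2GFP), 646.8 (PdgfraGFP) and 373.6 (PdgfrbGFP), and 41 of 44, 53 of 55 and 29 of 30 cells held a count. Cluster 3 followed without overlap at 115.3, 101.7 and 84.01, then clusters 4 (85.5 in Cspg4dsRED, 37.5 in PdgfrbGFP) and 8 (57.03), which overlapped in that order. The other fibroblasts lay lower, at 6.53, 8.78 and 11.8 in cluster 1, 0.995 and 7.59 in cluster 6, 0.429 to 4.96 in cluster 5 and 0.355 to 2.12 in cluster 7. By plate, the *Lama5* level of apex-like cells was 168.5, 269.1, 408.6, 474.4 and 845.3 on the 5 plates with at least 10 such cells. The level in cluster 4 was uneven between the 2 PdgfrbGFP plates richest in pericytes, at 49.5 and 4.34.

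**Figure D2:**
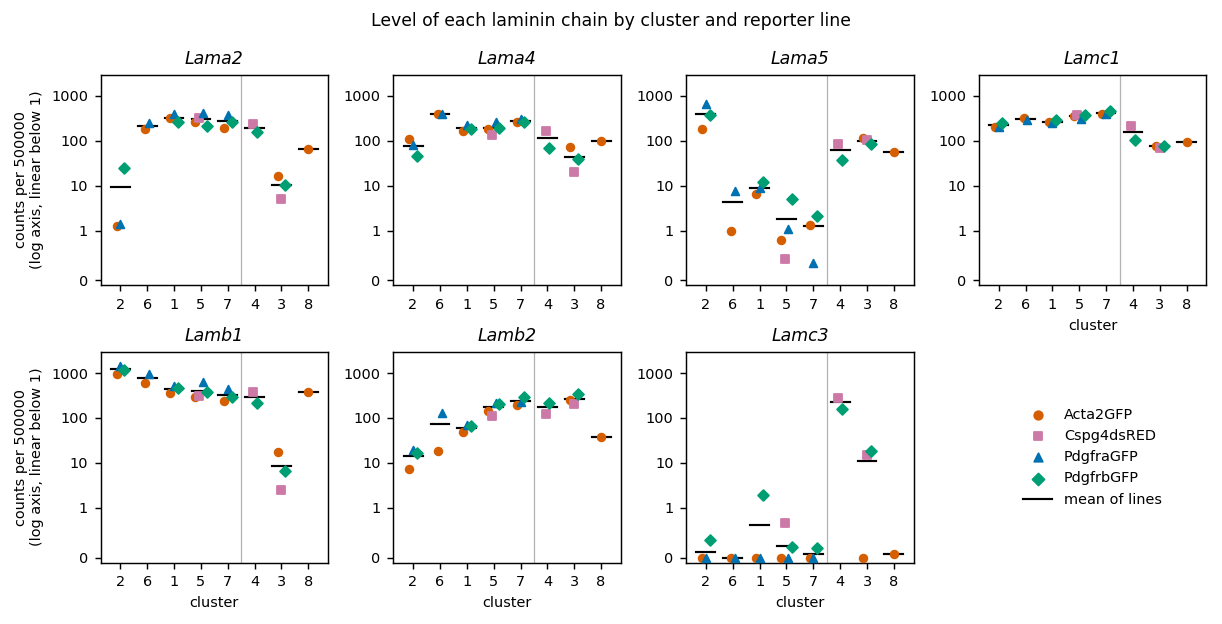
Level (counts per 500000, log axis that is linear below 1) of the 7 laminin chains other than *Lama3* and *Lamb3*, by cluster, with 1 point per reporter line of at least 10 cells and the mean of lines as a bar. *Lama2* and *Lama5* trade places between cluster 2 and the fibroblast clusters 1, 5, 6 and 7, and *Lamc3* is at 1.95 or below in every fibroblast point.

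Among the β chains, *Lamb1* (β1) and *Lamb2* (β2) graded in opposite ways. *Lamb1* was highest in the apex-like cluster, at 980.7, 1461 and 1173 (Acta2GFP, PdgfraGFP, PdgfrbGFP), ahead of cluster 6 (612.01 in Acta2GFP, 965.5 in PdgfraGFP) and cluster 1 (357.8, 504.1 and 476.98), with no overlap between these neighbours. Clusters 5 (291.97 to 625.1), 8 (376.97), 7 (233.8 to 448.7) and 4 (380.02 in Cspg4dsRED, 221.3 in PdgfrbGFP) overlapped their neighbours. Cluster 3 stood far below at 17.1 (Acta2GFP), 2.50 (Cspg4dsRED) and 6.43 (PdgfrbGFP). The 2 smooth muscle-like clusters thus lay far apart, since *Lamb1* was 376.97 in the Acta2GFP cells of cluster 8 and 17.1 in the Acta2GFP cells of cluster 3.

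*Lamb2*, the β2 chain known from the neuromuscular junction, kidney filter and arterial wall, was highest in cluster 3 at 248.1, 205.9 and 343.7 (Acta2GFP, Cspg4dsRED, PdgfrbGFP). Cluster 7 (195.4, 223.3 and 300.1 in Acta2GFP, PdgfraGFP and PdgfrbGFP), cluster 4 (125.7 in Cspg4dsRED, 220.9 in PdgfrbGFP) and cluster 5 (113.05 to 217.5) overlapped with it or with each other. Cluster 6 was split between its 2 lines (17.9 in Acta2GFP, 126.2 in PdgfraGFP), but its median cells had the reverse order (11.7 and 1.99). Clusters 1 (48.2, 68.96 and 66.7), 8 (37.4) and 2 (7.25, 19.2 and 16.7) came last in that order, each without overlap of the next. In the 3 *Cd34*-high fibroblast clusters, *Lamb2* and *Cd34* had the same order of means (cluster 7, then 5, then 1).

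Among the γ chains, *Lamc1* (γ1, the chain common to most laminins) varied least, with cluster means of 74.6 to 419.2. It was 390.7, 403.3 and 463.6 in cluster 7 and 309.7 to 385.1 in cluster 5, without overlap, and 247.7 to 324.5 in clusters 1 and 6. The apex-like cluster held 205.7, 200.2 and 253.3, the pericyte-like cluster 208.4 (Cspg4dsRED) and 106.3 (PdgfrbGFP), cluster 8 94.3, and cluster 3 78.2, 69.8 and 75.9, so mural cells lay at the lower end.

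*Lamc3* (γ3) was highest in the pericyte-like cluster. Its level in cluster 4 was 284.6 (Cspg4dsRED) and 158.9 (PdgfrbGFP), and 69.7% and 73.1% of those cells held a count. In cluster 3 it was 0 (Acta2GFP), 14.6 (Cspg4dsRED) and 18.3 (PdgfrbGFP), where the top 3 cells gave 96.7% and 70.4% of the summed level in the latter 2 lines. The cells of cluster 4 were uneven too (median cell 48.05 in Cspg4dsRED and 7.15 in PdgfrbGFP, highest cells 1705 and 1679). No fibroblast of the Acta2GFP or PdgfraGFP lines held a count (0 cells, which allows shares of cells with a count of up to 0.621% and 1.33%, for counting error only and not for cells that express the gene below detection). On the PdgfrbGFP and Cspg4dsRED plates, 7.47% to 34.6% of fibroblasts held one, and the level was 0.251 to 0.940 on 4 plates and 11.6 on 1 plate, where 3 of 26 fibroblasts gave nearly all of it. Pericyte-like cells made up 36.03% to 40.5% of the cells of 3 of these plates and at most 1.94% of every other plate, and the part of this in the fibroblast counts was not tested.

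Chains of 1 kind were compared with each other per length. In counts per 500000 per kb of merged exon, the α chains of the apex-like cluster were α5 35.2, α4 6.48 and α2 0.560, so *Lama5* made up 78.1% ± 13.7 (SD, n = 3) of its length-scaled α chain level. *Lama5* also made up 68.6% ± 11.7 of the α chains in cluster 3, 29.04% in cluster 8 (1 line) and 19.2% ± 3.10 in cluster 4 (n = 2). In clusters 1 and 5, *Lama2* (52.6% ± 5.02, n = 3, and 52.9% ± 8.75, n = 4) and *Lama4* (41.6% ± 1.34 and 46.1% ± 7.89) shared the α chain level. In cluster 6, *Lama4* held 71.1% ± 5.06 (n = 2). *Lamb1* made up 98.1% ± 0.576 of the β chain level in cluster 2 and 81.7% ± 0.311 in cluster 1. Clusters 5, 7 and 3 had 58.6% ± 5.61, 44.8% ± 9.38 and 1.97% ± 1.81. With the longest transcript as length, *Lamb1* made up 56.04% in cluster 7, so that it and not *Lamb2* was the larger part there, and 3.08% in cluster 3. In the pericyte-like cluster, *Lamc3* exceeded *Lamc1* per length and made up 66% ± 1.43 of the summed level of both (n = 2), against 15.6% ± 13.6 in cluster 3.

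**Figure D3:**
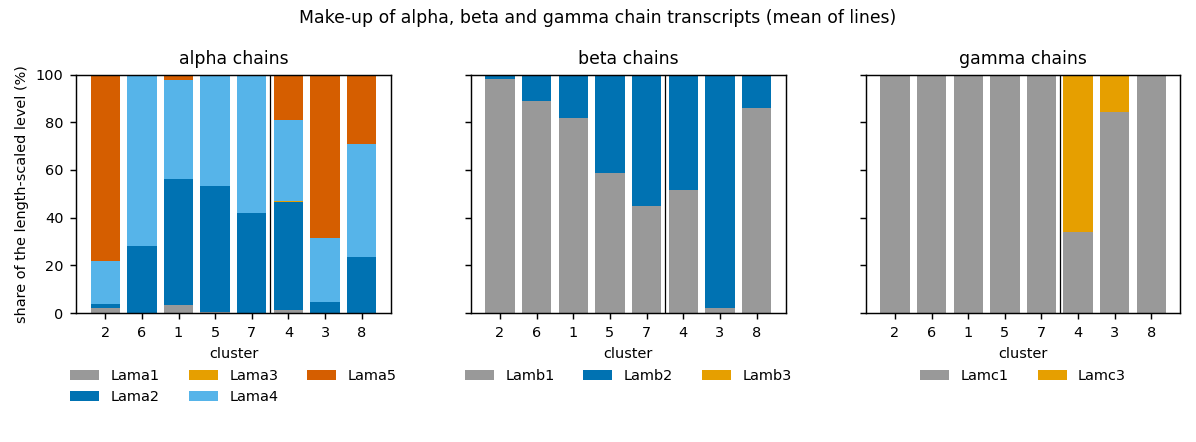
Share (%) of each chain in the length-scaled level of the α, β and γ chains (γ as *Lamc1* and *Lamc3*), by cluster, as the mean of lines (bars stack to 100%). *Lama5* holds 78.1% of the α chains in cluster 2 and 68.6% in cluster 3, *Lamb2* holds nearly all of the β chains in cluster 3, and *Lamc3* holds 66% of the summed *Lamc1* and *Lamc3* level in cluster 4.

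The comparison of fibroblasts with mural cells asked which chains separate the classes when all cells of a class are summed. The mural sums differed in make-up between lines. Cluster 8 was the largest mural cluster in Acta2GFP, and cluster 4 the largest in Cspg4dsRED and PdgfrbGFP. The part of this make-up in the result was not tested. With all cells of a class summed per line (fibroblasts in 4 lines, mural cells in 3), the edgeR quasi-likelihood test, adjusted by Benjamini and Hochberg over 19173 genes, put 4 of the 9 chains higher in fibroblasts and 0 lower, while 6.57% of all genes tested were called (3.21% higher, 3.36% lower). The median log2 fold change was 0.86 over the chains tested and -0.03 over all genes. *Lama2* was 237.7, 263.1, 285.8 and 232.5 in fibroblasts (Acta2GFP, Cspg4dsRED, PdgfraGFP, PdgfrbGFP) and 51.5, 123.3 and 92.99 in mural cells (Acta2GFP, Cspg4dsRED, PdgfrbGFP), without overlap, a log2 fold change of 2.02 ± 0.37 (SE, adjusted p = 0.0118). *Lamb1* (1.75 ± 0.33, adjusted p = 0.0135), *Lamc1* (1.61 ± 0.34, adjusted p = 0.0217) and *Lama4* (1.31 ± 0.31, adjusted p = 0.0341) were also higher, each in all 3 lines that held both classes, without overlap, and on 7 of 7 plates with at least 5 cells of both. For *Lamb1* this holds for the sums and not for each mural cluster. Its mean was 8.66 in cluster 3, but 376.97 and 300.7 in clusters 8 and 4. Fibroblast clusters 5 and 7 had means of 402.7 and 323.1. With the line as a block, *Lamb1* and *Lama4* missed the threshold at 1.56 and 1.35 (adjusted p = 0.0557 and 0.0904). Calls were also lost for *Lamc1* (1.497, adjusted p = 0.123) and *Lama4* (1.34, adjusted p = 0.154) without Acta2GFP, for *Lamb1* without Cspg4dsRED (1.80, adjusted p = 0.0720) and for *Lama4* without PdgfraGFP (1.27, adjusted p = 0.0761). Without the PdgfrbGFP line 0 of the 9 chains passed it, with log2 fold changes of 2.16 for *Lama2*, 1.62 for *Lamb1*, 1.40 for *Lamc1* and 1.11 for *Lama4*.

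*Lama5* and *Lamc3* were lower in fibroblasts within each line but did not pass. *Lama5* was 19.6, 19.3, 161.9 and 26.7 in fibroblasts and 75.95, 93.2 and 56.9 in mural cells, so the PdgfraGFP fibroblasts, of which 55 cells were apex-like, lay above all mural values and the other 3 lines below (log2 fold change -0.45 ± 0.77, adjusted p = 0.838). It was lower in 3 of 3 lines with both classes and on 7 of 7 plates, and passed with the line as a block (-1.97, adjusted p = 0.0463) and without the PdgfraGFP line (-1.94, adjusted p = 0.0162). *Lamc3* was 0, 0.940, 0 and 0.944 in fibroblasts and 1.42, 156.04 and 94.8 in mural cells, without overlap (adjusted p = 0.0941, and 0.0261 with the block). The Acta2GFP mural cells, at 1.42, held only 3 cells of the pericyte-like cluster 4. *Lamb2* was 108.5, 147.9, 115.9 and 149.1 in fibroblasts and 116.7, 163.9 and 269.4 in mural cells, which overlapped (-0.56 ± 0.29, adjusted p = 0.326).

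The comparison of cluster 2 with clusters 1, 5 and 7 asked how the laminin of apex-like fibroblasts differs from that of the *Cd34*-high fibroblasts. Since the clusters were drawn from the same counts, these tests describe the clusters. Of the 7 chains that passed the filter on low counts (*Lama3* and *Lamb3* did not), 2 were higher and 3 lower in cluster 2, while 7.26% of the 15893 genes tested were called (3.5% higher, 3.76% lower). *Lama5* rose by 6.64 ± 0.70 on the log2 scale (adjusted p = 0.00085), with within-line ratios of 49.3 to 144.3. *Lamb1* rose by 1.67 ± 0.20 (adjusted p = 0.00141), with ratios of 2.65 to 3.25. *Lama2* fell (-4.85 ± 0.99, adjusted p = 0.0177), as did *Lamb2* (-3.25 ± 0.41, adjusted p = 0.00182) and *Lama4* (-1.31 ± 0.27, adjusted p = 0.0182). All 5 kept their direction in 3 of 3 lines, and their groups did not overlap. The 8 endothelial markers had summed means of 22.4 in cluster 2 and 28.7, 137.8 and 200.3 in clusters 1, 5 and 7, of which *Cdh5* was at most 0.634. *Ano1*, of the Cajal cell pair, was 170.8 in cluster 2 and 1.06, 11.8 and 0.766 in clusters 1, 5 and 7, with *Kit* at most 0.503 in all 4, and the part of these markers in the result was not tested. *Lamc1* was 0.626 to 0.716 of the level in clusters 1, 5 and 7 within lines and was not called (-0.36 ± 0.22, adjusted p = 0.454). The calls of *Lama2* and *Lama4* were lost without the Acta2GFP line (-4.53 and -1.44, adjusted p = 0.128 and 0.137), and that of *Lama4* also without the PdgfraGFP or the PdgfrbGFP line (-1.36 and -1.15, adjusted p = 0.0703 and 0.0836). The log2 fold change of *Lama2* was -7.36 without the PdgfrbGFP line (adjusted p = 0.000823) and -4.26 without the PdgfraGFP line (0.0465).

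Cluster 6 was low in both *Cd34* and *Lama5*. Against cluster 2, 3 of 8 chains tested were called, with *Lama2* (4.55 ± 0.83, adjusted p = 0.0100) and *Lama4* (1.88 ± 0.34, adjusted p = 0.0100) higher and *Lama5* (-7.47 ± 1.04, adjusted p = 0.00164) lower, while 2.1% of the 18924 genes were called (0.576% higher, 1.52% lower). Cluster 6 entered with 10 cells (Acta2GFP) and 26 cells (PdgfraGFP). Without Acta2GFP it was 1 line with no test, and log2 fold changes were 4.09 (*Lama2*), 1.98 (*Lama4*) and -7.04 (*Lama5*). Without the PdgfrbGFP line the call of *Lama4* was lost (1.69, adjusted p = 0.0960) and *Lama2* stood at 6.91 (adjusted p = 0.000144). Without PdgfraGFP, which also left cluster 6 with 1 line, *Lama5* stood at -9.48. With the line as a block 5 chains were called, *Lamb2* (1.76, adjusted p = 0.0406) and *Lamb1* (-0.87, adjusted p = 0.0439) in addition. The 5 smooth muscle markers summed to 590.6 to 1779 per line in cluster 6 and 102.1 to 320.2 in cluster 2 (mean *Acta2* 908.5 and 163.3), and the 4 pericyte markers to 203.4 to 211.5 and 15.1 to 38.4 (mean *Abcc9* 101.4 and 2.12, *Rgs5* 3.01 and 4.74). All 5 smooth muscle markers and 3 of the 4 pericyte markers reached a mean level of 1 in both clusters, and their part in the result was not tested. Clusters 7 and 1 are the ends of the *Cd34* and *Lamb2* order within the *Cd34*-high fibroblasts, an order read from the same counts. Between them, 0 of 8 chains were called by edgeR (0.909% of all genes). *Lama5* (-3.04 ± 0.70), *Lamb2* (1.99 ± 0.57) and *Lamc1* (0.81 ± 0.23) had unadjusted p of 0.000561, 0.00305 and 0.00277 and adjusted p of 0.0584, 0.151 and 0.143, with no overlap of the groups. DESeq2 called 2 (*Lama5*, adjusted p = 0.00133, and *Lamb2*, 0.0223), and edgeR with the line as a block called *Lamb2* (2.09, adjusted p = 0.0166). The 8 endothelial markers summed to 151.5 to 240.8 per line in cluster 7 and 21.1 to 37.6 in cluster 1, mainly *Tek* (means 179.5 and 10.8), with *Cdh5* at 0.236 and 0.162. The 3 apex fibroblast markers summed to 26.1 to 61.4 per line in cluster 7 and 550.5 to 575.3 in cluster 1. Their means were 16.9 and 542.4 (*Tnc*), 23.3 and 21.6 (*Ptgs2*) and 0.768 and 0.824 (*Il1rl1*). The part of both lists in the result was not tested.

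**Figure D4:**
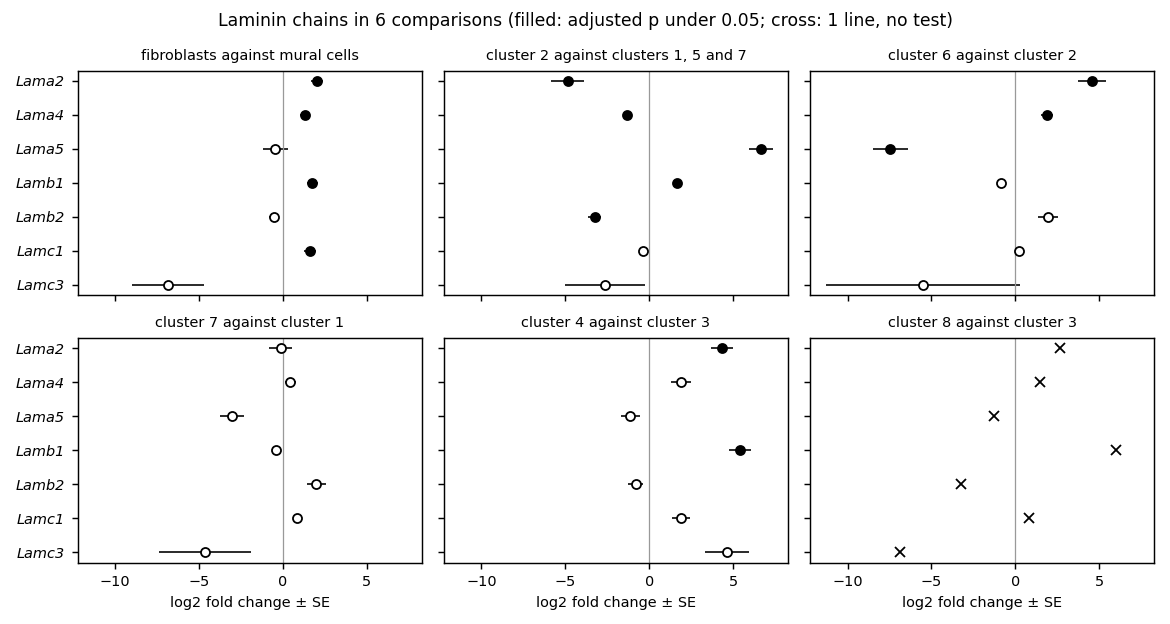
Log2 fold change ± SE from edgeR of 7 laminin chains in 6 comparisons, filled where the adjusted p is under 0.05, with crosses and no SE for cluster 8, which is 1 line and has no test. In cluster 2 against clusters 1, 5 and 7, *Lama5* (6.64) and *Lamb1* (1.67) lie to the right and *Lama2* (-4.85), *Lamb2* (-3.25) and *Lama4* (-1.31) to the left.

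The mural clusters were compared to ask whether pericyte-like and smooth muscle-like cells make the same laminin. In cluster 4 against cluster 3, 2 of 7 chains tested were higher and 0 lower (0.668% of the 16328 genes were called, 0.263% higher and 0.404% lower). *Lamb1* rose by 5.40 ± 0.67 (adjusted p = 0.00521) and *Lama2* by 4.33 ± 0.63 (adjusted p = 0.0104), each in both lines that held both clusters and without overlap. Without Cspg4dsRED, which left cluster 4 with 1 line and no test, they stood at 4.598 and 3.74. Without Acta2GFP *Lamb1* stood at 6.26 (adjusted p = 0.00702). *Lamc3* had a log2 fold change of 4.66 ± 1.31 and missed the threshold (adjusted p = 0.178), with within-line ratios of 8.69 (PdgfrbGFP) and 19.4 (Cspg4dsRED). It passed in DESeq2 (adjusted p = 0.0176) and with the line as a block (4.07, adjusted p = 0.0415), and stood at 3.96 without Cspg4dsRED. No chain passed in limma on means per cell (5.23, adjusted p = 0.0735 for *Lamb1* and 4.21, adjusted p = 0.0713 for *Lama2*). *Lama2* did not pass with at least 3 cells per sum (4.02, adjusted p = 0.0677). *Lama4* stood at 1.89 ± 0.61 (adjusted p = 0.262), and its log2 fold change was 0.494 to 2.57 over 8 alternative fits. Cluster 8 is 1 line with no spread of its own, so its differences from cluster 3 are given as values, with no test. The log2 fold change was 5.98 for *Lamb1* and -3.23 for *Lamb2*. With cluster 8 assumed to vary like clusters 3 and 4, edgeR would call 1 of 7 chains (*Lamb1*) and 1.04% of all genes (0.398% higher, 0.643% lower). The 5 fibroblast markers, which all reached a mean level of 1 in these clusters, summed to 1058 to 2259 per line in cluster 4, 274.1 to 835.7 in cluster 3 and 1811 in cluster 8 (mean *Dcn* 694.2 in cluster 4 and 171.7 in cluster 3), and their part in these results was not tested. Of the 8 endothelial markers, 7 reached a mean level of 1 in cluster 4 and 6 in cluster 3, with summed levels of 494.3 to 567.4 and 348.4 to 413.9 per line. *Esam*, an adhesion gene of endothelium, gave most of this (means 495.7 and 362.7), while *Cdh5* was near 0 in both, and the part of these markers in the result was not tested. The Acta2GFP line held 52 cells of cluster 8 on 2 plates, on which *Lamb1* was 376.8 and 377.5, *Lama5* 35.4 and 129.1, and *Lama2* 46.8 and 132.9.

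A chain was taken as present where its mean was at least 1 count per 500000 per kb in every line of the cluster, and 11 trimers were examined. Clusters 1, 5, 6 and 7 held the chains of 4, which were α2β1γ1, α2β2γ1, α4β1γ1 and α4β2γ1. The apex-like cluster also held those of 4, but with α5 in place of α2. Cluster 3 held the chains of 2 (α4β2γ1 and α5β2γ1; 4 without the Acta2GFP line), and cluster 8 those of 6, with α2, α4 or α5 beside β1 or β2. The pericyte-like cluster held the chains of 9, which were these 6 and the γ3 trimers α2β1γ3, α4β2γ3 and α5β2γ3. In cluster 4 this rests on mean levels, since after thinning to 50000 counts the 3 chains were seen together in 21.4% to 35.7% of the cells for the 6 trimers with α2 or α4 and in 11.4% to 13.6% for the 3 with α5. The median cell of cluster 4 held *Lama5* at 0 and 0.648 (Cspg4dsRED, PdgfrbGFP), *Lama4* at 15.2 and 4.62 and *Lama2* at 20.4 and 31.9, all far under the means. In cluster 8 the median cell was at 0 for *Lama5* (32.7% of the cells held a count) and *Lamb2* (46.2%), and the chains of α5β2γ1 were seen together in 12.96% of the cells after the same thinning. *Lamb2* in cluster 2 had medians of 0, 0.978 and 13.2 (Acta2GFP, PdgfraGFP, PdgfrbGFP) and *Lama4* in cluster 3 medians of 8.84, 0.460 and 1.60 (Acta2GFP, Cspg4dsRED, PdgfrbGFP). In cluster 6, *Lamb2* had medians of 11.7 and 1.99 (Acta2GFP, PdgfraGFP). There the chains of α2β2γ1, and those of α4β2γ1, were seen together in 31.1% of the cells after the same thinning. No cluster held all chains of α3β1γ1 or α3β2γ1. Presence says which trimers the messages would allow, and no assembled protein was measured.

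Single cells were then asked for all 3 chains of a trimer at once, after thinning every cell to 50000 counts. The chains of α5β1γ1 were seen together in 77.1% of apex-like cells (exact Clopper-Pearson 95% interval 68.9% to 83.97%, 72.7% to 83.3% by line) and in 9.55% to 14.8% of the cells of clusters 1, 5 and 7. In the pericyte-like cluster, where all 3 were present by mean level, that share was 12.1% (interval 7.24% to 18.7%), within the range of clusters 1, 5 and 7, where *Lama5* did not reach the limit in every line. The chains of α2β1γ1 were seen in 85.9% of cluster 1 cells, 87.5% of cluster 5 cells and 87.3% of cluster 7 cells. In apex-like cells that share was 25.2%, which was uneven between lines (9.09% to 70%). α5β2γ1 had its highest share in cluster 3 (32.9%, interval 25.2% to 41.3%), where *Lamb2* without *Lamb1* was seen in 57.9% of the cells. In cluster 7, the chains of all 4 trimers of the *Cd34*-high fibroblasts were seen in 84.5% to 89.1% of the cells, and *Lamb1* and *Lamb2* together in 84.5%. In apex-like cells *Lamb1* without *Lamb2* was seen in 69.5%. The chains of α2β1γ3 were seen in 30.7% of pericyte-like cells (23.2% to 39.1%) and at most 2.22% of any other cluster, and 19.3% of pericyte-like cells held *Lamc3* without *Lamc1*. These shares depend on depth, since without thinning α5β1γ1 was seen in 90.8% of apex-like cells and α2β1γ3 in 52.8% of pericyte-like cells.

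**Figure D5:**
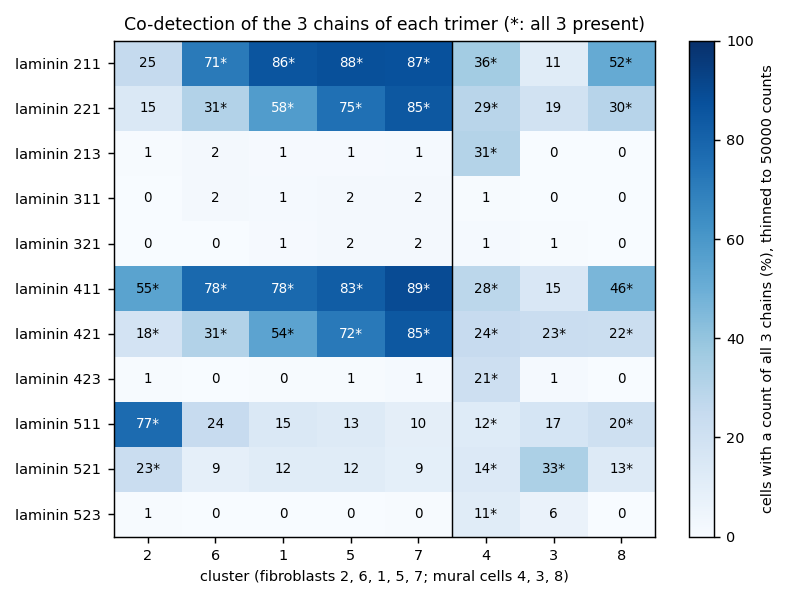
Share (%) of cells of each cluster with at least 1 count of all 3 chains of a trimer after thinning to 50000 counts, with * where all 3 chains were present in every line, and trimers named by the numbers of their α, β and γ chains. α5β1γ1 peaks in cluster 2 (77.1%), α5β2γ1 in cluster 3 (32.9%) and α2β1γ3 in cluster 4 (30.7%).

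Partners of laminin in the basement membrane were followed as a list of 11 genes. Against mural cells, fibroblasts had 3 higher and 1 lower, with 6.57% of all genes called: *Nid1* (nidogen, which links laminin to type IV collagen, 1.98 ± 0.30, adjusted p = 0.00506), *Hspg2* (perlecan, 1.83 ± 0.35, 0.0143) and *Col15a1* (3.35 ± 0.58, 0.00882) rose, and *Agrn* (agrin, -1.65 ± 0.39, 0.0366) fell. In the apex-like cluster against clusters 1, 5 and 7, where 7.26% of all genes were called, 3 were higher, namely *Col18a1* (2.23 ± 0.40, adjusted p = 0.0107) and the paired type IV collagen chains *Col4a5* (3.92 ± 0.79, 0.0173) and *Col4a6* (3.54 ± 0.48, 0.00276), and *Ntn4* (netrin 4, which binds γ1, -6.08 ± 1.55, 0.0451) was lower. *Col4a1* (2.44 ± 0.40, 0.0197) and *Col4a2* (2.35 ± 0.43, 0.0319) were the 2 partners higher in cluster 4 than in cluster 3 (0.668% of all genes called). *Nid1* was the 1 partner called in cluster 7 against 1 (2.14 ± 0.23, adjusted p = 0.000216, higher, 0.909% of all genes called). In the single line of cluster 8 its log2 fold change from cluster 3 was 3.54, with no test. In cluster 6 against 2 (2.1% of all genes called), *Nid1* (-2.36 ± 0.27, 0.000348) and *Col18a1* (-2.63 ± 0.48, 0.0105) were lower.

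Of 7 laminin receptor genes, 3 were higher in mural cells and 0 in fibroblasts, against 3.36% and 3.21% of all genes, given as fibroblasts against mural cells: *Bcam* (the α5 receptor Lutheran, -6.43 ± 0.63, adjusted p = 0.000567), *Itga7* (the muscle laminin integrin, -5.69 ± 0.66, 0.00159) and *Itga3* (-4.36 ± 0.64, 0.00431). The *Bcam* level was 740.7 ± 105.5 (SD, n = 3) in cluster 3, 391.7 ± 184.5 (n = 2) in cluster 4 and 17.5 in cluster 8, and at most 9.83 in the mean of any fibroblast cluster. Between the single line of cluster 8 and cluster 3 the log2 fold change was -5.51, with no test. *Itga3* was lower in cluster 4 than in cluster 3 (-7.61 ± 1.35, adjusted p = 0.0276, 0.668% of all genes called). *Itgb1* (295.5 to 891.1) and *Dag1* (208.4 to 292.7) were seen in every cluster. In the 3 comparisons between fibroblast clusters edgeR called 0 of the 7 receptors (against 7.26%, 2.1% and 0.909% of all genes in clusters 2 against 1, 5 and 7, 6 against 2 and 7 against 1), of which 1 had an unadjusted p under 0.05 in cluster 7 against 1 and 0 in the others.

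As a description over the 21 cluster-by-line groups, which share lines and plates, the genes with the pattern most like each chain were ranked by Pearson's r of log2 levels among 10360 genes. For *Lama5* they were *Tbx3* (r = 0.953), *Prdm1* (0.917) and *Ntf3* (0.896), for *Lamc3* *Cyp4b1* (0.972) and *Adra2a* (0.970), and for *Lama2* *Pdlim2* (0.933), *Pmp22* (0.927) and *Cdc42ep2* (0.920). *Lamb1* was most like *Dkk3* (0.950), *Lamb2* like *Ecm2* (0.853), *Lamc1* like *Bmp1* (0.950) and *Lama4* like *Appl2* (0.877). Among the chains themselves, r was -0.82 between *Lama2* and *Lama5*, -0.56 between *Lamb1* and *Lamb2*, and 0.79 between *Lama4* and *Lamc1*.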

How the data were processed

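SmartSeq2 libraries of single sorted cells were read as raw counts per gene and cell, as deposited by the authors. They mapped reads to GRCm38 with TopHat2, counted them per Ensembl gene with featureCounts and removed cells of low depth. Cells that expressed neither *Pdgfra* nor *Pdgfrb*, and cells with endothelial or immune signatures, were removed by them as well. The table held 46517 genes and 92 spike-in rows (1.36% of counts, left out), and totals were 47598 to 1494292 counts per cell (median 248628). SmartSeq2 carries no molecular identifiers and no strand, so intervals cover counting error only, and reads of the antisense genes that overlap exons of *Lama2* (3.86% of its exon bases), *Lamc3* (6.27%) and *Lama3* (1.83%) cannot be told apart.

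Members and lists were chosen with earlier results of these data known. All 9 chains are named, and list members where they passed. Counts were summed per class and line (at least 10 cells) and tested in edgeR 4.0.16 (quasi-likelihood test, filterByExpr, TMM, adjusted p under 0.05), with DESeq2 1.42.0 and limma 3.58.1 as alternatives, in R 4.3.3 and Python 3.11.15. Labels name no mouse, so p-values measure the spread between lines. The clusters of a line were sorted onto the same plates. Deviations of the same line correlated at 0.152 to 0.175 between fibroblasts and mural cells, 0.168 to 0.179 between clusters 4 and 3, 0.133 to 0.171 between clusters 7 and 1, 0.0851 to 0.115 between cluster 2 and clusters 1, 5 and 7, and 0.0379 to 0.097 between clusters 6 and 2, and the fit with the line as a block is given where it changes the call of a chain. Cluster 8 was 1 line and had no such check. On simulated counts with 200 genes changed by 4 on the log2 scale, edgeR recovered 119 with 5 false calls (fibroblasts against mural cells, 18537 genes). It recovered 135 with 3 (cluster 2, 15545 genes), 118 with 13 (cluster 4, 15390 genes) and 91 with 4 (cluster 8, 15560 genes). For clusters 7 (18316 genes) and 6 (18296 genes) it recovered 76 and 71, each with 1 false call. Smaller changes were not simulated. Lengths are merged exons of GENCODE vM21. Cells were thinned to 50000 counts for shares of cells, leaving out 11 shallower cells. No doublet caller was run.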

Additional observations from a re-analysis of the deposited data

Results flagged for a closer look

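In 18 tests of the 9 chains over the 4 lines, in fibroblasts and in cluster 5, a line stood apart in 3 (Dixon's test, where chance flags about 1 in 20 groups). *Lama5* in fibroblasts was 161.9 in the PdgfraGFP line against 19.3 to 26.7 in the others. *Lama5* in cluster 5 was 4.96 in PdgfrbGFP cells against 0.429 to 1.09. *Lamb3* in fibroblasts was 0.259 in PdgfrbGFP cells against 0.0909 to 0.110 counts per 500000.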

How the results depend on the processing

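The number of the 9 chains called depended on the settings in all 6 comparisons. In fibroblasts against mural cells (4 called) it was 0 to 4 when 1 line was left out, with 2 without Acta2GFP and 0 without PdgfrbGFP. In cluster 2 against clusters 1, 5 and 7 (5 called) it was 3 to 5, with 3 without Acta2GFP, and the calls of *Lama5*, *Lamb1* and *Lamb2* held in 9 of 9 alternatives. In cluster 6 against cluster 2 (3 called) the call of *Lama4* was lost without PdgfrbGFP. Fits without Acta2GFP or PdgfraGFP left cluster 6 with 1 line, so their counts are not given. In cluster 4 against cluster 3 (2 called) it was 4 with no filter on low counts, 1 with at least 3 cells per sum and 0 with limma on means. Fits without Cspg4dsRED or PdgfrbGFP left cluster 4 with 1 line, and their counts are not given either. In cluster 8 against cluster 3 (1 called, which assumes a spread for its single line and is no test) it was 3 to 4, with 4 without Cspg4dsRED and 3 without PdgfrbGFP, 4 in DESeq2, 4 with no filter and 2 with at least 3 cells per sum. In cluster 7 against cluster 1 (0 called) it was 0 in every leave-one-out fit, 2 in DESeq2 and 1 with no filter. With the line as a replicate block, 5 chains were called in cluster 6 against cluster 2, 2 in cluster 8 against cluster 3 and 1 in cluster 7 against cluster 1, and the other 3 counts were within 1.5 times. Where an arm kept 1 line, it was assumed to vary like the others. The cause was not tested.

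Signs changed in 6 fits, none of a called chain. Leaving out 1 line gave log2 fold changes of -1.941 to 0.0442 for *Lama5* in fibroblasts against mural cells (positive without Acta2GFP), -0.387 to 0.0631 for *Lama2* in cluster 7 against 1 (positive without Acta2GFP), -0.237 to 0.433 for *Lamc1* in cluster 6 against 2 (negative without Acta2GFP) and -6.16 to 0.801 for *Lama3* there (negative without PdgfraGFP). With the block, *Lamc3* was 1.53 in cluster 6 against 2 and 4.44 in cluster 8 against 3.

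At a presence limit of 5 counts per 500000 per kb, the trimers present fell to 1 in cluster 2, 1 in cluster 3 and 2 in cluster 6, and were 6 in cluster 4 and 4 in cluster 8. At 0.2 they were 6 in cluster 3. At the limit of 1, leaving out a line gave 2 to 4 in cluster 3 (4 without Acta2GFP). The number was 4 in clusters 1, 2, 5, 6 and 7 and 9 in cluster 4 in every leave-one-out setting. With the longest transcript as length, *Lama5* made up 53.7% of the α chains in cluster 3. *Lama5* keeps 11388 bases by that length, while *Lama2* and *Lama4* go from 16338 and 12068 to 9614 and 6046. The *Lama5* share is thus lower by this length in every cluster, clusters 4 and 8 included. For the β and γ chains this length was added after seeing the data, and *Lamb1* made up 56.04% of the β chains in cluster 7.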

Other observations

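*Lama1*, the α1 chain of embryonic laminin and outside the list of 9, was 4.76, 9.34 and 24.6 counts per 500000 in cluster 1 (Acta2GFP, PdgfraGFP, PdgfrbGFP), where 8.62%, 12.3% and 29.7% of the cells held a count and the top 3 cells gave 74.01%, 93.2% and 38.6% of the summed level. It was 5.90, 8.46 and 11.3 in the apex-like cluster and at most 0.241 in any line of cluster 7.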
